A study of Rattus norvegicus with 6 samples.

Results

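The mitosis genes described here are mitotic kinases and cyclins and the genes of the spindle checkpoint, kinetochore, spindle and cytokinesis, measured by total RNA-seq in rat INS-1 insulinoma β-cell lines. They were taken by name from a list of 43 symbols, and kept where the normalized counts of the 6 lines averaged 5 or more. Of the 43, 42 had a row under that name and all 42 passed, among 15579 genes that passed the same filter and 32900 features in the table. Ccnb2 was not analysed here.

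The study compared 3 control with 3 PWS lines, 1 library for each, to learn what loss of the Prader-Willi syndrome (PWS) genes does to β-cells. Every line is INS-1(832/13)::mCherry, which carries a human INS-neoR and a mouse Ins2-C-mCherry transgene, was grown untreated in 7.5 mM glucose, and has the PWS domain deleted on its silent maternal allele. Control lines 5-9, 2 and 16 have no other deletion of the domain, and PWS lines 3, 19-1 and 19-4 have it deleted on the paternal, active allele too. Control lines 2 and 16 and all PWS lines were cloned from line 5-9, PWS line 3 has a larger paternal deletion than designed, and lines 19-1 and 19-4 are subclones of line 19, so that the PWS lines stand for 2 clones. P-values therefore measure the spread between these lines only.

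As background, entry into mitosis is driven by CDK1 bound to A- and B-type cyclins, the checkpoint kinases then hold anaphase back until every kinetochore is attached to the spindle, and the anaphase-promoting complex with CDC20 releases it by marking securin and cyclin B for destruction. Aurora B and its partners correct faulty attachments and then move to the central spindle, where motors and bundling factors prepare the cleavage of the cell. Most of these genes are transcribed in waves late in the cell cycle, so in a culture of unsynchronized cells their RNA is known to follow the share of cells in G2 and M. In bulk RNA, a smaller share of dividing cells and less of the RNA per dividing cell cannot be told apart.

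Depth and identity were first checked. Between 26016478 and 36084261 reads per line were counted, and the 42 genes together took 165497 to 260642 of them. The gene behind the fewest reads was Spc24, with 5011 over the 6 lines, and the one behind the most was Top2a, with 164248. Snrpn, a gene of the deleted domain, read 3149 to 3956 normalized counts in the control lines. In the PWS lines it read 0 to 3.64, from at most 4 reads. Each library thus matched its group, control or PWS, but Snrpn cannot tell the lines of a group apart. All 9 β-cell markers were present, summing to 483736 to 560561 in the control lines and 253307 to 455271 in the PWS lines. Of the defining markers of other cells, Sst, Prss1, Amy2a3, Irx2, Cftr, Dcn, Cdh5 and Ptprc were at 0 in every line. Marker sums were at most 2.05 for acinar cells and 34.0 for immune cells (nearly all Cd68). They reached higher in the PWS than in the control lines for alpha cells (17.9 to 110 against 1.84 to 23.7, with Gcg at 100 in line 19-4), duct cells (15.5 to 26.3 against 7.34 to 19.0), delta cells (1.20 to 13.6 against 0.918 to 2.85), endothelial cells (2.39 to 9.09 against 2.85 to 5.51) and fibroblasts (1.20 to 3.64 against 1.03 to 2.85). Their part in the results was not tested.

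One control line stood apart on one chromosome that holds 3 of the mitosis genes. Over the 834 tested genes that a RefSeq table of assembly GRCr8 places on chromosome 5, the median level in control line 2 was 0.32 above the median of the 6 lines on the log2 scale. The other 5 lines had medians between -0.023 and -0.0063 there. Control line 2 was the highest line for 66.2% of the chromosome 5 genes, against 26.0% of all matched genes. PWS line 19-4 likewise had a median of 0.26 over 419 genes of chromosome 12, which holds none of the 42. All other medians, over 21 chromosomes and 6 lines, lay between -0.063 and 0.038. Cdc20, Cdca8 and Kif2c are the members on chromosome 5, and their values are given below with and without control line 2. A chromosome was found by name for 12391 of the tested genes (79.5%) and for all 42 mitosis genes.

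**Figure D1:**
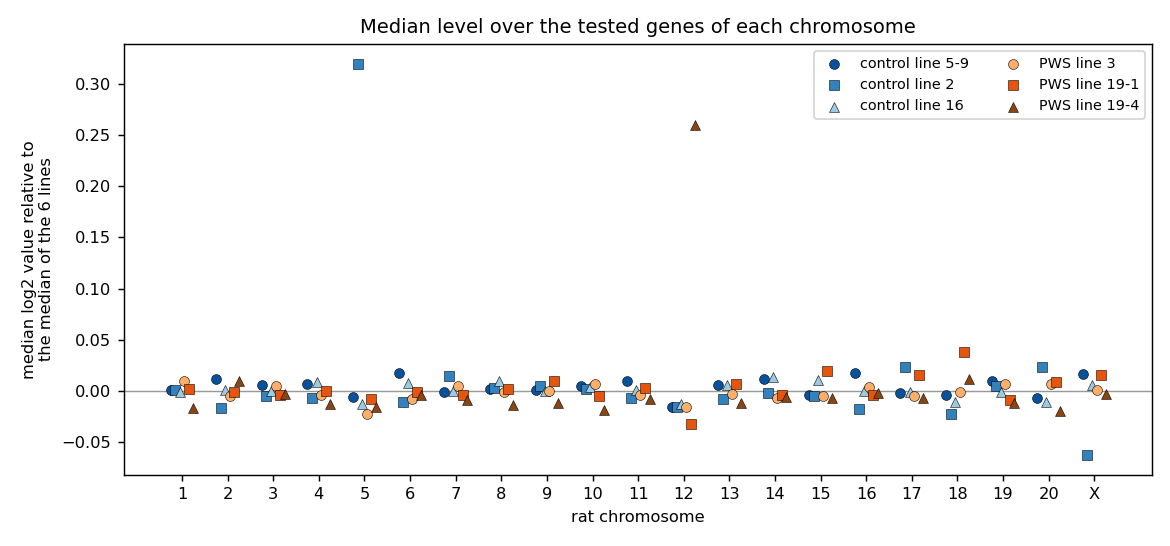
Median over the tested genes of each rat chromosome (x axis) of the log2 normalized count relative to the median of the 6 lines (y axis), with 1 point per line. Control line 2 stands at 0.32 on chromosome 5 and PWS line 19-4 at 0.26 on chromosome 12, and the other points lie between -0.063 and 0.038.

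All 42 mitosis genes had a lower mean in the PWS lines, and none passed limma's adjusted threshold, while DESeq2 called 3. Among all tested genes, 50.7% had a log2 fold change below 0. The log2 fold changes ran from -0.48 for Cdc20, the activator of the anaphase-promoting complex, to -0.048 for Aurkb, the Aurora B kinase. Without control line 2, Cdc20 was at -0.29 and the range ran from -0.36 for Kif20a to -0.025 for Aurkb. Their median was -0.23, or 14.8% lower, with quartiles of -0.28 and -0.18. The median of all tested genes was -0.0028.

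By limma on log2(normalized count + 1), with Benjamini-Hochberg adjustment over all 15579 genes, 0 of the 42 passed an adjusted p of 0.05, where 0.25% of all tested genes were called lower. Their adjusted p-values ran from 0.253 to 0.867. At an unadjusted p under 0.05, limma placed 30 of the 42 lower, against 5.35% of all tested genes, and edgeR 27, against 5.24%. edgeR's quasi-likelihood test called 0 as well, against 0.199% of all genes called lower. DESeq2 on the recovered reads called 3 of the 42 lower (Prc1, Kif2c and Kif20a), against 0.783% of all genes, and placed 31 lower at an unadjusted p under 0.05, against 5.01%. The standard errors ran from 0.0655 to 0.156 with a median of 0.0854, below the median of 0.123 over all genes.

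Every PWS line was below every control line for 27 of the 42 genes, which held for 9.01% of all tested genes. An exact two-sided permutation test of 3 against 3 lines cannot go below 0.1. Genes without overlap reach that p by definition, so for these 27 it adds nothing to the count. The remaining genes had exact p-values of 0.2 for 10 genes, 0.3 for 4 and 0.8 for 1. The 5923 tested genes with a mean in the same range (832 to 27157 normalized counts) had a median log2 fold change of -0.0092, 53.4% of them were lower, 6.09% were lower at an unadjusted limma p under 0.05, and 10.2% had every PWS line below every control line.

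**Figure D2:**
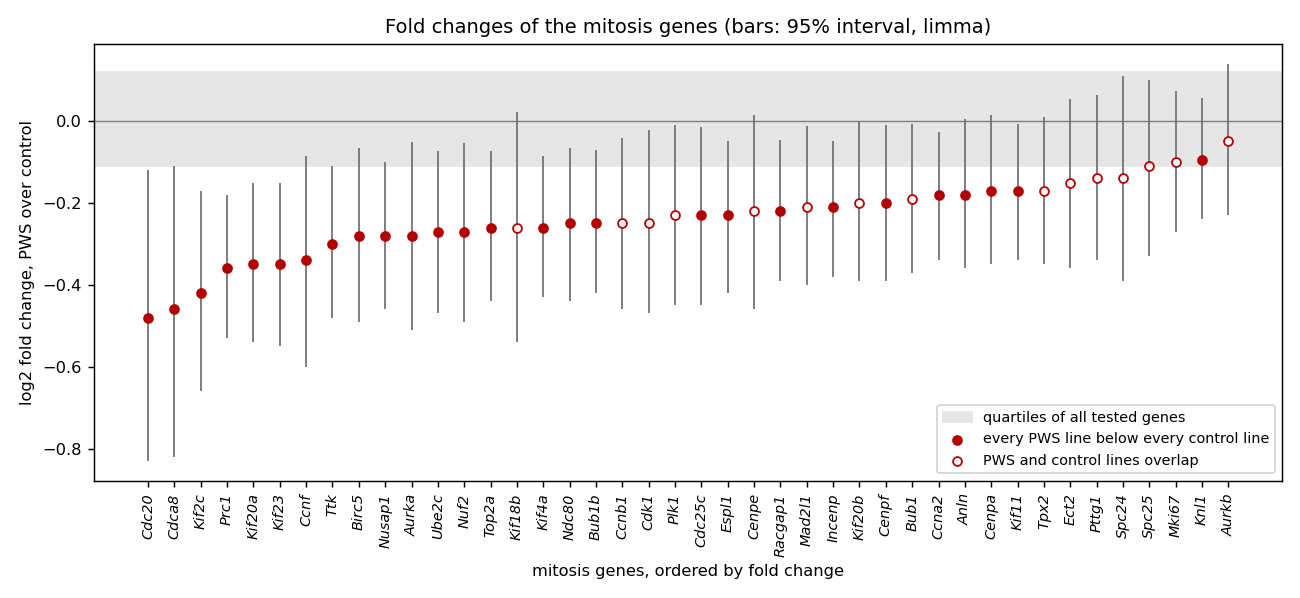
Log2 fold change (PWS over control, y axis) of the 42 mitosis genes in order of size (x axis), with the 95% interval of the limma fit as bars, filled points where every PWS line was below every control line and open points where the lines overlap; the grey band spans the quartiles of all tested genes. All points lie below 0, from -0.48 for Cdc20 to -0.048 for Aurkb, and 27 are filled.

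The lines differed within each group. On the log2 scale and against the control mean, the median over the 42 genes was 0.084 in line 5-9, -0.043 in line 2 and -0.042 in line 16, and it was -0.12 in PWS line 3, -0.27 in line 19-1 and -0.28 in line 19-4. The parental control line 5-9 was the highest of the 6 lines for 34 genes, and a subclone of line 19 was the lowest for 41 (19-4 for 24, 19-1 for 17). PWS line 3 lay between the other control lines and the line 19 subclones: it was below the lowest control line for 27 genes, against 38 for line 19-1 and 42 for line 19-4. In each of the 15 genes whose groups overlapped, line 3 was among the PWS lines above the lowest control.

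The number of genes lower at an unadjusted limma p under 0.05 rested on single lines. It was 11 without control line 5-9, 16 without PWS line 19-1, 13 without PWS line 19-4 and 16 with both subclones averaged into 1 sample, and 27 to 30 without any other line. Over all tested genes the share moved less, from 5.35% to 4.71%, 4.08%, 3.46% and 3.63% in those 4 fits. The median log2 fold change stayed between -0.30 and -0.20 in all of these, and all 42 genes stayed lower except Aurkb, at 0.022 without line 19-4. The DESeq2 calls also moved with single lines. DESeq2 called 0 without control line 5-9 and without either line 19 subclone, 5 without control line 16 and 9 without PWS line 3. Its calls over all genes moved too: it called 122 genes lower with all lines, 111, 57 and 44 without control line 5-9, PWS line 19-1 and PWS line 19-4, 120 without control line 16 and 170 without PWS line 3. Without control line 2 it called 79 genes lower, among them 2 of the 42 (Cenpe and Cenpf) and none of Prc1, Kif2c and Kif20a. By limma, 12 of the 42 log2 fold changes moved by over 1.5 times when some 1 line was left out, and their values are given with each gene.

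**Figure D3:**
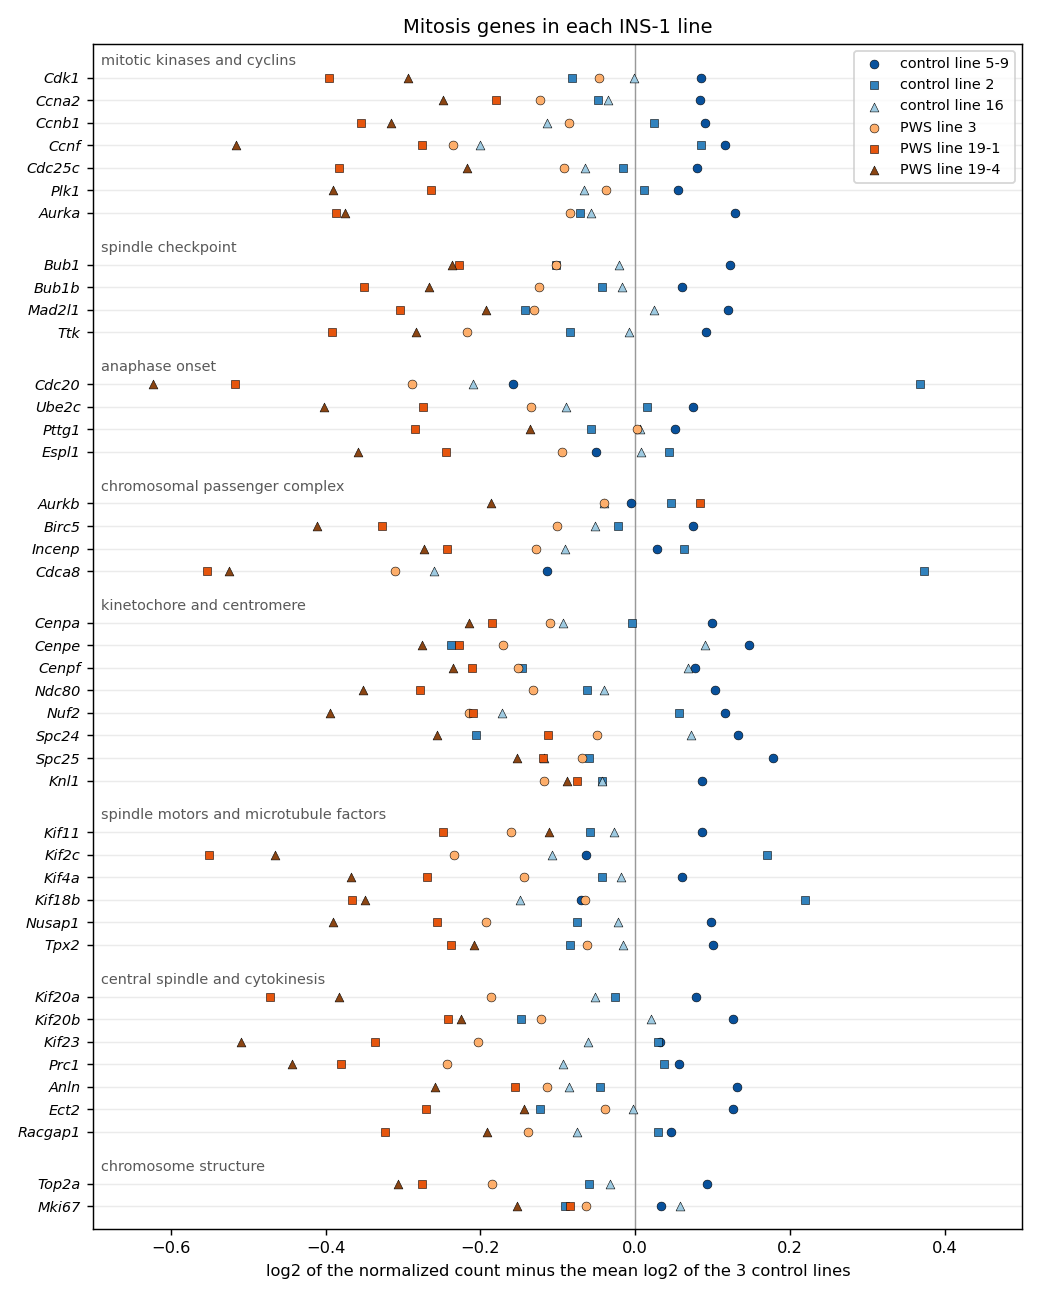
Normalized counts of the 42 mitosis genes in each line as log2 differences from the mean of the control lines (x axis), with 1 row per gene grouped by role and 1 symbol per line. The line 19 subclones lie farthest to the left in most rows, line 3 lies between them and the control lines, and control line 2 stands far to the right for Cdc20 and Cdca8.

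Most of the promoters found for the mitosis genes held CCAAT or CHR letters, and 21 of 36 held both. A pair of elements is known from promoters of late cell cycle genes: the CCAAT box, bound by NF-Y, and the cell cycle genes homology region (CHR), bound by the MuvB complexes. RefSeq promoters of 300 bases (250 before and 50 after the start, GRCr8) were matched by symbol for 36 of the 42 genes and searched on both strands for CCAAT and for the CHR letters TTTGAA or TTCGAA, which can share 1 base with it. CCAAT was found in 26 of the 36 (72.2%), against 37.5% of all 33469 promoters of the table, and at 2 or more places in 19 (52.8% against 11.2%). CHR letters were found in 27 (75.0% against 19.7%) and both in 21 (58.3% against 7.95%). Of 81 promoters of other mitosis genes, 55.6% held CCAAT, 55.6% CHR letters and 34.6% both, and of 30 promoters of DNA replication genes, 63.3%, 16.7% and 13.3%. The 36 genes and those of the other lists entered with their first listed start only, while the whole table counts every start. Whether the lists differ was not tested. The 120 bases just before the start are shown for CDK1 and its cyclin, for the gene with the lowest fold change, for 2 genes that DESeq2 called and for Top2a, each on its gene's own strand, 5′ to 3′, with CCAAT and CHR letters of either strand in capitals:
Cdk1 (chr20:19265173-19265292, + strand): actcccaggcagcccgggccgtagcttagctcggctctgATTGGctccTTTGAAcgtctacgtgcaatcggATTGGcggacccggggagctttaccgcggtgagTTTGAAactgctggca
Ccnb1 (chr2:33655226-33655345, - strand): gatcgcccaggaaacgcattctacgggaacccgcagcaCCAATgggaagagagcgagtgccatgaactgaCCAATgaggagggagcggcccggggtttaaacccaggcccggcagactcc
Cdc20 (chr5:137255800-137255919, - strand): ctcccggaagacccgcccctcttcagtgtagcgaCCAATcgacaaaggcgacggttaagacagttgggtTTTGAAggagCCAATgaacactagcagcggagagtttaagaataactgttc
Prc1 (chr1:143659361-143659480, + strand): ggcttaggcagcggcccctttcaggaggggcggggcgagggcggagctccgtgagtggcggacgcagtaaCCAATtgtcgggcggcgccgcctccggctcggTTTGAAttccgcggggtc
Top2a (chr10:84473094-84473213, - strand): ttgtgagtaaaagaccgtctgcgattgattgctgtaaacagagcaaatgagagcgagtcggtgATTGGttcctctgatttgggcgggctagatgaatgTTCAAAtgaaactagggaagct
Kif2c (chr5:135899213-135899332, - strand): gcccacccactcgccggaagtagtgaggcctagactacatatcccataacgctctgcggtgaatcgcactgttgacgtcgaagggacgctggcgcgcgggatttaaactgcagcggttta

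Cdk1 and Cdc20 each show a pair of CCAAT boxes with CHR letters close by, Prc1 and Top2a one of each, Ccnb1 a pair of CCAAT boxes alone, and Kif2c, at the first of its 2 listed starts, neither. The median log2 fold change was -0.25 for the 27 genes with CHR letters and -0.25 for the 9 without. It was -0.24 for the 26 with CCAAT and -0.25 for the 10 without. Every PWS line was below every control line for 19 of the 27 and 4 of the 9, and for 16 of the 26 and 7 of the 10. Among all tested genes this held for 9.01%. Whether genes with and without the letters differ was not tested. Only the CHR letters TTTGAA and TTCGAA were searched, so a promoter counted as without them may hold another form of the element. A match is a description of the sequence and not a sign of binding.

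The mitotic kinases and cyclins were all lower, with a median of -0.25 on the log2 scale over 7 genes, each at an unadjusted limma p under 0.05. Values are given from here on in the order of control lines 5-9, 2 and 16 and PWS lines 3, 19-1 and 19-4, as normalized counts. Cdk1, the kinase that drives entry into mitosis, read 5333, 4751 and 5022 in the control lines and 4867, 3823 and 4105 in the PWS lines. Line 3 lay inside the control range, above control line 2, and both line 19 subclones lay well below it. Its log2 fold change was -0.25 ± 0.0973 (SE, n = 3 lines per group; limma adjusted p = 0.415).

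Ccna2 (cyclin A2, a partner of CDK1) read 5392, 4923 and 4965 against 4671, 4492 and 4283, with no overlap and the fold change nearest to 0 in this group (-0.18 ± 0.0684 SE). Ccnb1 (cyclin B1) read 5165, 4934 and 4486 against 4575, 3798 and 3901, where line 3 was above control line 16 (-0.25 ± 0.0912 SE). Ccnf (cyclin F, the substrate receptor of an SCF ubiquitin ligase) had the lowest fold change of the group, reading 1581, 1547 and 1269 against 1239, 1205 and 1020, with control line 16 close to the PWS lines (-0.34 ± 0.112 SE; limma adjusted p = 0.340). Line 3 was below all controls for Ccna2 and, narrowly, for Ccnf, but not for Ccnb1.

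Plk1 (Polo-like kinase 1, which acts at centrosomes, kinetochores and the midbody) read 2134, 2069 and 1962 in the control lines and 2001, 1710 and 1567 in the PWS lines, with line 3 above control line 16 (-0.23 ± 0.0963 SE; -0.15 without PWS line 19-4). Aurka (Aurora A, the kinase of spindle poles) read 2743, 2388 and 2412 against 2366, 1920 and 1935. For Aurka line 3 was only just below the lowest control, and the line 19 subclones were nearly equal to each other (-0.28 ± 0.10 SE). Cdc25c, the phosphatase that activates CDK1, ran from 889 to 983 in the control lines and from 713 to 872 in the PWS lines (-0.23).

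The log2 fold changes of the 4 spindle checkpoint genes had a median of -0.23, and each was lower at an unadjusted limma p under 0.05. Ttk (MPS1, the kinase that starts checkpoint signaling) read 1318, 1167 and 1230 in the control lines and 1064, 943 and 1016 in the PWS lines. All PWS lines were below all controls, with line 19-1 lowest (-0.30 ± 0.0812 SE; limma adjusted p = 0.283). Bub1, a kinetochore kinase of the checkpoint, read 7885, 6747 and 7139 against 6747, 6184 and 6148, so that line 3 and control line 2 were level (-0.19 ± 0.0792 SE). Bub1b (BUBR1, a part of the inhibitor of CDC20) had no overlap (-0.25), and Mad2l1 (MAD2, which binds CDC20) had line 3 just above control line 2 (-0.21).

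Among the genes of anaphase onset the median was -0.25 over 4 genes. Cdc20 read 2849, 4103 and 2748 in the control lines and 2602, 2221 and 2065 in the PWS lines. Control line 2 stood far above all other lines, while the PWS lines were still all below the other controls. Its log2 fold change was -0.48 ± 0.156 SE (limma adjusted p = 0.341; DESeq2 0.0920), and -0.29 ± 0.102 SE without control line 2, close to the other mitosis genes. The part of the chromosome 5 level of control line 2 in the larger value was not tested.

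Ube2c, the ubiquitin-conjugating enzyme of the anaphase-promoting complex, ran from 2594 to 2908 in the control lines and from 2090 to 2515 in the PWS lines (-0.27). Espl1 (separase, which cuts cohesin) ran from 2902 to 3098 against 2346 to 2815 (-0.23), with 68.0% unique reads. Unique reads here are those that neither align to several places nor overlap several genes. Pttg1 (securin, the inhibitor of separase) was nearest to 0, reading 1303, 1208 and 1262 against 1259, 1032 and 1144. Line 3 was within the control range and only the line 19 subclones were below it (-0.14 ± 0.0883 SE; 95% interval -0.34 to 0.063; -0.21 without PWS line 3 and -0.067 without PWS line 19-1).

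The chromosomal passenger complex held the genes with the second lowest and the highest of the 42 fold changes. Cdca8 (borealin) read 1840, 2578 and 1663 in the control lines and 1606, 1357 and 1384 in the PWS lines, with control line 2 again far above the rest and no overlap. Its log2 fold change was -0.46 ± 0.155 SE (limma adjusted p = 0.343), and -0.28 ± 0.0959 SE without control line 2. Aurkb, the kinase of the same complex, read 4051, 4196 and 3952 against 3953, 4308 and 3572. Here line 19-1 was the highest of all 6 lines and line 19-4 the lowest, so the subclones of line 19 differed from each other (-0.048 ± 0.0803 SE; 95% interval -0.23 to 0.14). Its log2 fold change was -0.025 without control line 2, -0.11 without PWS line 19-1 and 0.022 without PWS line 19-4.

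The other 2 subunits lay between these. Birc5 (survivin) ran from 1435 to 1567 in the control lines and from 1119 to 1388 in the PWS lines (-0.28), and Incenp, the scaffold of the complex, from 3050 to 3393 against 2689 to 2972 (-0.21). Neither overlapped between the groups.

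The 8 kinetochore and centromere genes had a median of -0.18 on the log2 scale, with 3 of them (Nuf2, Ndc80 and Cenpf) lower at an unadjusted limma p under 0.05. Nuf2, a subunit of the NDC80 complex that holds microtubule ends, read 1862, 1787 and 1526 in the control lines and 1481, 1486 and 1308 in the PWS lines. Its groups did not overlap, with control line 16 only just above the PWS lines (-0.27 ± 0.0956 SE; limma adjusted p = 0.364). Of the other subunits of that complex, Ndc80 had a log2 fold change of -0.25, with no overlap, Spc24 one of -0.14 and Spc25 one of -0.11, both with overlap. With 1 line left out, Spc24 ran from -0.24 (without control line 2) to -0.072 (without control line 5-9; -0.081 without PWS line 19-4) and Spc25 from -0.17 (without control line 16) to -0.025 (without control line 5-9).

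Knl1, the scaffold that recruits the checkpoint kinases, was nearest to 0 in this group, reading 8267, 7556 and 7557 against 7176, 7391 and 7324. The PWS lines lay close together, with a coefficient of variation of 1.51%, and just below control lines 2 and 16 (-0.094 ± 0.0655 SE; 95% interval -0.24 to 0.056; -0.051 without control line 5-9). Only 25.0% of the Knl1 reads were unique in that sense. The log2 fold change was -0.20 for Cenpf, a large kinetochore protein of G2 and M, -0.22 for Cenpe, the kinetochore motor, and -0.17 for Cenpa, the centromeric histone, which had 40.2% unique reads. Cenpe read 10733, 8216 and 10319 against 8611, 8273 and 8007, so that control line 2 lay among the PWS lines, and its log2 fold change was -0.34 without that line.

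Spindle motors and microtubule factors had a median of -0.26 over 6 genes. Kif2c (MCAK, the kinesin that takes microtubules apart at centromeres) read 2891, 3399 and 2804 in the control lines and 2567, 2063 and 2188 in the PWS lines. Control line 2 was highest and every PWS line was below every control. Its log2 fold change was -0.42 ± 0.106 SE (limma adjusted p = 0.277; DESeq2 0.0402). Without control line 2 it was -0.33 ± 0.0987 SE, and the DESeq2 adjusted p was 0.207.

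Kif4a, a chromosome-bound kinesin, ran from 3260 to 3502 in the control lines and from 2604 to 3039 in the PWS lines (-0.26). Nusap1, a microtubule-bundling factor, ran from 4938 to 5565 against 3967 to 4551 (-0.28), and Kif11 (EG5, which pushes spindle poles apart) from 12475 to 13793 against 10939 to 12022 (-0.17). None of these overlapped. Kif18b, a kinesin that shortens astral microtubules, ran from 829 to 1069 against 713 to 878 (-0.26), with control line 2 highest, and its log2 fold change was -0.15 without that line. Tpx2, the activator of Aurora A at the spindle, read 7549, 6641 and 6963 against 6745, 5968 and 6092, where line 3 was above control line 2 (-0.17 ± 0.0782 SE).

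The central spindle and cytokinesis genes held 2 of the 3 genes that DESeq2 called. Prc1, which bundles the antiparallel microtubules of the central spindle, read 8209, 8098 and 7402 in the control lines and 6669, 6064 and 5806 in the PWS lines. All PWS lines lay clearly below all controls, and both line 19 subclones were below line 3. Its log2 fold change of -0.36 ± 0.0776 SE had the lowest p of the 42 genes (unadjusted 0.00164 and adjusted 0.253 by limma; adjusted 0.0118 by DESeq2). Left out in turn, control line 5-9 raised its DESeq2 adjusted p to 0.135, PWS line 19-1 to 0.133, PWS line 19-4 to 0.136 and control line 2 to 0.0600.

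Kif20a (MKLP2, the motor that carries the passenger complex to the central spindle) read 5356, 4980 and 4895 in the control lines and 4459, 3659 and 3890 in the PWS lines. The groups were well apart, with line 19-1 lowest (-0.35 ± 0.0860 SE; adjusted p = 0.277 by limma and 0.0454 by DESeq2). Its DESeq2 adjusted p was above 0.05 when any line other than PWS line 3 was left out, at 0.0720 to 0.319. Kif23 (MKLP1, a subunit of centralspindlin) ran from 2704 to 2884 against 1983 to 2451 (-0.35 ± 0.0870 SE), just outside the DESeq2 threshold at 0.0524.

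Racgap1, the partner of Kif23 in centralspindlin, ran from 8342 to 9079 against 7029 to 7989 (-0.22), with 58.4% unique reads. Anln (anillin, a scaffold of the contractile ring) ran from 3752 to 4359 against 3327 to 3678 (-0.18, and -0.11 without control line 5-9), with 53.7% unique reads, and Kif20b, a motor of the midbody, from 10868 to 13142 against 10180 to 11062 (-0.20). Ect2, the exchange factor that turns on RhoA for furrowing, was nearest to 0, reading 8615, 7249 and 7879 against 7686, 6546 and 7148. Line 3 lay above control line 2 (-0.15 ± 0.0893 SE; -0.088 without control line 5-9 and -0.091 without PWS line 19-1). With only unique reads counted, Racgap1 had a log2 fold change of -0.25, Anln -0.15, Espl1 -0.21, Cenpa -0.17, Knl1 -0.072 and Mki67 -0.095. The direction did not rest on the other reads.

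Of the 2 genes of chromosome structure, Top2a had the lower fold change, and the 95% intervals of the pair overlapped. Top2a (topoisomerase IIα, which untangles sister chromatids) read 31488, 28323 and 28880 in the control lines and 25979, 24395 and 23878 in the PWS lines, with no overlap (-0.26 ± 0.0795 SE; 95% interval -0.44 to -0.074; limma adjusted p = 0.325). Mki67 (Ki-67, the coat protein of mitotic chromosomes and the usual marker of cycling cells) read 24150, 22148 and 24550 against 22570, 22261 and 21229. Control line 2 lay inside the PWS range, and 81.5% of the reads were unique (-0.10 ± 0.0755 SE; 95% interval -0.27 to 0.073).

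Most genes of the wider mitotic program also had a lower mean. Of 92 rows tested for 91 other mitosis genes (Spag5 has 2 rows; mitotic entry and exit, the anaphase-promoting complex, kinetochore, condensin and cohesin, spindle and cytokinesis), 79 had a lower mean in the PWS lines and the median log2 fold change was -0.18. By limma 0 passed, 39 were lower and 2 higher at an unadjusted p under 0.05, and DESeq2 called 5 lower (Melk, Cenpw, Smc2, Smc4 and Kif22). Smc2, a condensin subunit on chromosome 5, was highest in control line 2, and its log2 fold change was -0.37 with that line and -0.26 without it. All 32 other kinetochore genes were lower, with a median of -0.19. The 14 subunits and regulators of the anaphase-promoting complex had a median of -0.087, 10 lower, and 0 at an unadjusted limma p under 0.05. Of the 92 rows, 6 are on chromosome 12 (among them Anapc5 and Anapc7 of that complex), with a median of 0.24 in line 19-4. Whether these groups differ was not tested.

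The ends of this list were Melk, a mitotic kinase, and Kif2a, a microtubule-depolymerizing kinesin. Melk read 1968, 2533 and 2038 in the control lines and 1656, 1568 and 1540 in the PWS lines (-0.45 ± 0.101 SE). It is on chromosome 5, and its log2 fold change was -0.34 without control line 2. Kif2a read 850, 832 and 1030 against 1034, 1344 and 1215, with line 3 level with control line 16 (0.40 ± 0.121 SE; limma adjusted p = 0.316), in the opposite direction to Kif2c.

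Genes of DNA replication lay closer to 0 than the mitosis genes. Of 37 tested, 34 were lower, the median was -0.11 on the log2 scale, and 8 were lower at an unadjusted limma p under 0.05. Rrm2, the regulated subunit of ribonucleotide reductase, had the lowest fold change, reading 2729, 2471 and 2767 against 2152, 1905 and 2048 (-0.38 ± 0.0769 SE; adjusted p = 0.211 by limma and 0.00797 by DESeq2), and Cdt1, the licensing factor, was at the other end (0.13; 0.23 without control line 2 and 0.079 without control line 5-9). By line, the medians of the line 19 subclones lay closer to 0 than for the mitosis genes, and that of line 3 did not. Line 19-4 was at -0.065 for DNA replication and at -0.28 for the mitosis genes, and line 19-1 at -0.18 and -0.27. Line 3 was at -0.13 and -0.12. Chromosome 12, where line 19-4 stood high, holds 5 of the DNA replication genes (Mcm7, Pole, Rfc2, Rfc3 and Rfc5) and none of the 42. All 5 were highest in line 19-4, with a median of 0.23 there, and the other 32 had a median of -0.081 in that line and a median fold change of -0.13. Whether the 2 lists differ was not tested.

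Transcription factors known to act on mitotic genes had a median of -0.075 over 16 genes, 13 of them lower and 2 (Lin9 and Lin54, MuvB subunits) at an unadjusted limma p under 0.05. The median was -0.047 without control line 2, where Nfyc, an NF-Y subunit on chromosome 5, went from -0.24 to -0.048. Mybl2 (B-MYB) read 1554, 2214 and 1442 in the control lines and 1443, 1273 and 1349 in the PWS lines, with control line 2 far above the rest (-0.33 ± 0.15 SE; -0.15 without that line), and Nfya, another NF-Y subunit, was at 0.063 (0.00058 without control line 2 and up to 0.11 without PWS line 3). Foxm1, the forkhead factor of G2 and M, read 1315, 1351 and 1367 against 1236, 1306 and 1123 (-0.14 ± 0.0775 SE; limma adjusted p = 0.538; -0.081 without PWS line 19-4). Its PWS lines were all below its controls, but line 19-1 by little.

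**Figure D4:**
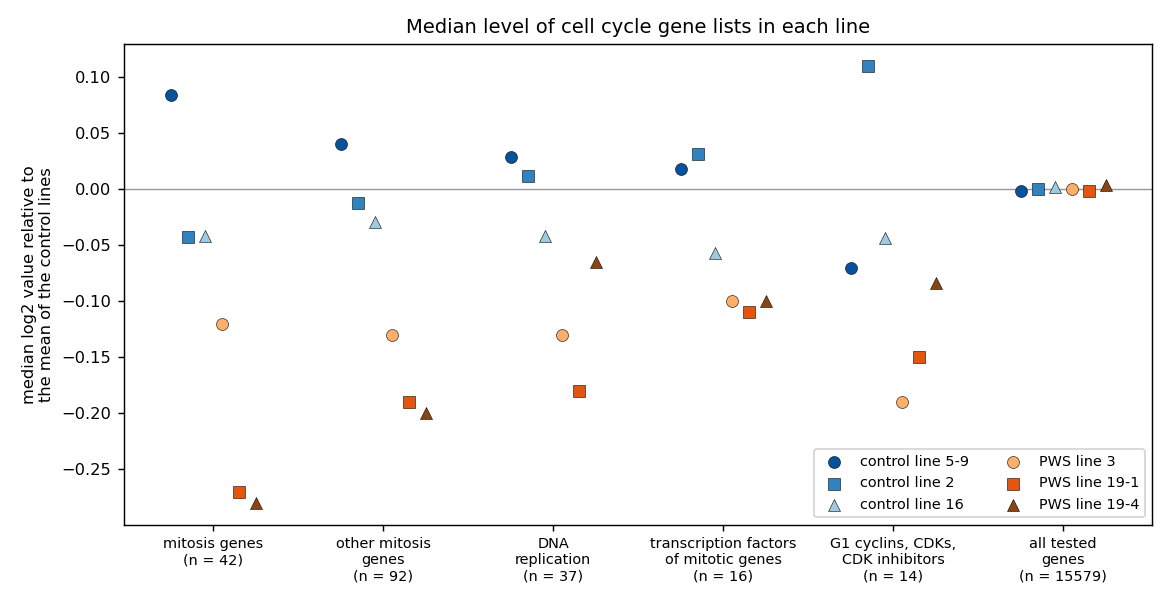
Median over each gene list (x axis) of the log2 value in each line against the control mean (y axis), with 1 point per line. For the mitosis genes the line 19 subclones stand at -0.27 and -0.28 and line 3 at -0.12, and for all tested genes every line stands at 0 within 0.0035.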

How the data were processed

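Total RNA-seq of 3 control and 3 PWS INS-1 lines was analysed, with 1 library per line. Per the labels and the methods, the authors trimmed stranded paired reads with cutadapt, aligned them by STAR 2.7.0e against Ensembl's rat genome extended by the transgenes, and counted them with HTSeq 0.11.2 or RSEM 1.3.1. The deposited values are a signal, namely read counts scaled by size factors of DESeq2, and are named normalized counts. For HTSeq, 100% of them came out as whole reads within 0.01 read. HTSeq's nonunique all table was the main one, and 1 read was worth 0.909 to 1.20 normalized counts. It counts a read that aligns to several places or overlaps several genes at each, and nonunique none counting leaves such reads out. All columns used belong to a sample. The deposited fold changes and p-values were not used.

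The test between the groups was limma 3.58.1 (R 4.3.3), with a trended prior, on log2(normalized count + 1), keeping genes that averaged 5 or more, with Benjamini-Hochberg adjustment at 0.05. Fold changes on that scale understate those of low genes. edgeR 4.0.16 and DESeq2 1.42.0 were run on recovered reads. The tests were tested on simulated data. Alternatives were pseudocounts of 0.5 and 5, other filters, TMM scaling, other counting, leaving out each line, a replicate block, averaged subclones and a threshold of 0.1. The mitosis genes and the other lists were chosen with earlier results of these data known. All members are named. Values in every line are given for the ends of each role, Cdk1, Ccnb1, Plk1, Aurka, Aurkb, Top2a, Mki67 and members called by any tool; for other lists the ends and limma's calls are named, and Lin9, Lin54, Foxm1, Nfyc, Cenpe's values by line and DESeq2's calls were added after their values were seen. Promoter sequences and chromosomes are RefSeq's (GRCr8). Protein sequences and the small RNA-seq were not used here.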

Additional observations from a re-analysis of the deposited data

How the results depend on the processing

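The count of all genes called by limma was 40, and it was 228 with DESeq2, 12 with RSEM, 16 with nonunique none counting, 9 with a mean of at least 50, and 33 to 55 with one line left out. The count of mitosis genes called was 0 in every alternative, limma at an adjusted p under 0.1 included, except DESeq2. DESeq2 called 3, against 0.783% of all tested genes called lower, and 6 at an adjusted p under 0.1. The share of all genes at 0.1 is not given here, so the 6 is a count without its background. Without one line each, DESeq2's count ran from 0 to 9, with 0 without control line 5-9, PWS line 19-1 or PWS line 19-4. The count of mitosis genes lower at an unadjusted limma p under 0.05 was 30, 11 to 30 with one line left out (lowest without control line 5-9) and 16 with the subclones averaged. Fewer lines enter these fits, and the cause was not otherwise tested. The median log2 fold change was -0.30 to -0.20 in all alternatives. Of 714 values of single mitosis genes under alternatives, 1 changed sign (Aurkb, -0.11 to 0.022 with one line left out, above 0 without PWS line 19-4) and 3 newly passed the threshold (Prc1, Kif2c and Kif20a with DESeq2, at -0.35, -0.42 and -0.34). The count of genes with every PWS line below every control was 23 with RSEM (8.87% of all tested genes) and 25 with nonunique none counting (8.70%). With one line left out it was 27 to 38, where 13.2% to 15.7% of all genes are apart, since fewer lines have to be. The counts at an unadjusted p, the non-overlap counts, the leave-one-out DESeq2 fits, DESeq2 at 0.1, the values without a line for genes outside the 42 and the medians without chromosome 12 were added after seeing the data.

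Numbers in the labels did not pair the lines: same-numbered lines correlated by 0.0035, 0.0467 and 0.0051 in their deviations. With the replicate block, 36 genes and 0 mitosis genes were called, 29 were lower at an unadjusted p under 0.05, and their median was -0.23.

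The mitosis genes had 5011 to 164248 reads each over the 6 lines, and counting error was not separated from the spread between lines.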

Other observations

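The genes that act before S phase gave a mixed picture. Of 14 tested G1 cyclins, CDKs and CDK inhibitors, 11 had a lower mean in the PWS lines, the median log2 fold change was -0.12, and 2 were lower at an unadjusted limma p under 0.05. Ccnd1 (cyclin D1, which starts the passage through G1) was the lowest, at 53.2, 67.0 and 136 normalized counts in the control lines (5-9, 2 and 16), against 37.8, 37.1 and 50.9 in the PWS lines (3, 19-1 and 19-4). The groups did not overlap, but control line 5-9 was close to PWS line 19-4 and control line 16 was far above the other controls (-0.91 ± 0.338 SE; limma adjusted p = 0.385; -0.52 without control line 16). E2f3, an E2F factor that acts on S phase genes, was at the other end (0.22; 0.11 without PWS line 19-4).

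Cdkn2c (p18, an inhibitor of CDK4 and CDK6) read 1522, 2004 and 1404 in the control lines and 1202, 1162 and 893 in the PWS lines, with no overlap (-0.59 ± 0.156 SE; adjusted p = 0.277 by limma and 0.0227 by DESeq2). It is on chromosome 5, and its log2 fold change was -0.44 without control line 2. Cdkn1a (p21) read 333, 352 and 277 against 280, 283 and 527, with PWS line 19-4 above all other lines (0.12 ± 0.239 SE; -0.18 without that line, 0.020 without control line 16 and up to 0.28 without PWS line 3). Rbbp4, a histone-binding subunit of MuvB, is another gene of chromosome 5: it read 6433, 12094 and 6281 in the control lines and 6115, 6427 and 6591 in the PWS lines, and its log2 fold change was -0.31 with control line 2 and 0.0042 without it. These genes were singled out after their values were seen, except Ccnd1 and E2f3.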
